A study of Homo sapiens with 24 samples.

Results

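The genes described here are 10 genes of glucose uptake and of the switch from pyruvate oxidation to lactate, namely SLC2A1, SLC2A3, HK2, PFKFB3, PFKFB4, ALDOC, PGK1, ENO2, LDHA and PDK1. They were taken by gene symbol from 2 tables that each list 58884 genes, and all 10 were found in both. They had been selected on TPM values of these same libraries, and the comparison that was read for the choice is not recorded. Their own differences are therefore given as a description, with no p-value, and tests are given for other genes of glucose metabolism. The lists of those genes were also drawn up with earlier results of these data known, which limits what their tests can show. The RNA came from HEK293T, a human embryonic kidney cell line. WT cells carry an intact SETD2 gene, which encodes the enzyme that trimethylates histone H3 at lysine 36. KO is a SETD2 knockout derivative with neither copy of the gene intact, and all groups other than WT share this background. SETD2 FL denotes KO cells transfected with a plasmid for the full-length protein, and SETD2 C denotes KO cells transfected with a plasmid for its C-terminal segment, which the labels call N3. Both plasmids drive expression from a CMV promoter. The first table covers 2 libraries of WT and 2 of KO, and the second covers 2 KO, 2 SETD2 FL and 2 SETD2 C libraries. The labels call the WT and KO libraries untreated, so SETD2 C against SETD2 FL is the comparison in which both groups were transfected. No label says whether the libraries of a group came from separate cultures, so p-values measure the spread between libraries only, which may be technical.

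Cells take up glucose through transporters of the SLC2A family and convert it to pyruvate by glycolysis. Pyruvate is either reduced to lactate by lactate dehydrogenase or passed to the mitochondria, where pyruvate dehydrogenase feeds the tricarboxylic acid (TCA) cycle. Many genes of this route have tissue-restricted isoforms, and the genes described here are known for induction by low oxygen through hypoxia-inducible factors (HIF), which bind DNA at a short core, ACGTG or GCGTG.

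Levels are given as TPM, the length-corrected share of each gene among all transcripts of its library, as the authors deposited it. Sequencing depth cannot be read from this unit. Differences are log2 values of TPM scaled between libraries, after adding 0.5, and their standard error (SE) comes from limma. They understate the change of genes with low TPM. A gene was called where its fold was 2 or more and its p, adjusted by Benjamini-Hochberg, was 0.05 or less, and calls at the adjusted p alone were counted as well. The share of TPM from mitochondrially encoded genes was 23.2% and 14.1% in WT and 12.0% and 12.4% in KO of the first table. In KO, SETD2 FL and SETD2 C of the other table it was 7.04% and 6.23%, 11.0% and 7.79%, and 2.93% and 3.37%, so it was lowest where the 10 genes were highest, and its part in their levels was not tested. SETD2 was listed at a TPM of 12.6 and 14.8 in WT and 16.2 and 16.3 in the libraries labelled KO, so its transcript does not check that label. In the second table SETD2 stood at 12.0 and 12.2 in KO, 439 and 422 in SETD2 FL and 1329 and 1264 in SETD2 C. The listed SETD2 level thus differed between the constructs, as did their sequence, and these cannot be told apart. TPM is corrected for the length of annotated transcripts, and how this treats the shorter construct was not tested. The paper reports that mRNA of the constructs did not differ significantly in its RNA-seq. Of 9 markers of HEK293T cells, all were found in every library, with VIM at a TPM of 444 to 926 and PAX2 at 0.99 to 2.21. The summed TPM of 10 markers of other cell types was, in the second table, 2.23 and 2.22 in KO, 2.72 and 3.03 in SETD2 FL and 4.11 and 3.84 in SETD2 C, and its part in the results was not tested.

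Promoter sequences are shown for PGK1, ENO2, LDHA and PDK1, because these cover the later steps of the pathway and include ENO2, which had the largest difference of the 10. Each runs 5′ to 3′ on the strand of the gene, from 250 bases before to 50 bases after the annotated start, and was taken from RefSeq on GRCh38.p14. Capitals mark ACGTG or GCGTG read on either strand, so that CACGT and CACGC are the same cores on the other strand. PGK1 (chrX:78103998-78104297, plus strand) holds 4 cores, ENO2 (chr12:6914330-6914629, plus strand) holds 1, LDHA (chr11:18394313-18394612, plus strand) holds 6, of which overlapping pairs form the palindrome CACGTG, and PDK1 (chr2:172555840-172556139, plus strand) holds 2.
PGK1: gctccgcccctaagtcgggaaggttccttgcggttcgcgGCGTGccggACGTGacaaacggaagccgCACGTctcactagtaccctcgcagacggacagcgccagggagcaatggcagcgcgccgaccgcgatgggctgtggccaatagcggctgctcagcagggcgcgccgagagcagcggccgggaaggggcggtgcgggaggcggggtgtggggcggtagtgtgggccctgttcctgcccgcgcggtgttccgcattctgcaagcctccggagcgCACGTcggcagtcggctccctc
ENO2: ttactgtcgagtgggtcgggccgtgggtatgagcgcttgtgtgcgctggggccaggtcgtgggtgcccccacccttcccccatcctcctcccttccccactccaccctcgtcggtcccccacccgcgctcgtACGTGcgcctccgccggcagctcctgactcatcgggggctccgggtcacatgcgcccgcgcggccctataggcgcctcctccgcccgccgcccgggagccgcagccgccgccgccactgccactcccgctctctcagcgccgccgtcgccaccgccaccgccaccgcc
LDHA: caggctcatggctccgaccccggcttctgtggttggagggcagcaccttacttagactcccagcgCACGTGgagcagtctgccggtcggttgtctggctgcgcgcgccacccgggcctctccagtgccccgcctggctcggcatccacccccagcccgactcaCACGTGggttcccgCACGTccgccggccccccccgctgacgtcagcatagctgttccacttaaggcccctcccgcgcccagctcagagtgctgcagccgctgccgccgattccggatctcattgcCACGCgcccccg
PDK1: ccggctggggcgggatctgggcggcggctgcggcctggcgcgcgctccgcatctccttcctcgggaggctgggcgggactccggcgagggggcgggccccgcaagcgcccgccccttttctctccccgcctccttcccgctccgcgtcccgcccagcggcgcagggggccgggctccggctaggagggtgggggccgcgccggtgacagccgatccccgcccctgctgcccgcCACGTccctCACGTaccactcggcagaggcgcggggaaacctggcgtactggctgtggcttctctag

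Promoters were found for 9 of the 10 genes, with 13 annotated starts in all, and SLC2A3 had no entry. Of the 13 windows, 12 held at least 1 core, which is 92.3%, and each of the 9 genes had at least 1 such window. The window without a core was the upstream one of the pair annotated for PDK1. Over all 35116 promoters of the same length, 48.4% held a core. Among 91 promoters of 54 other glucose pathway genes, 53 did, which is 58.2%. The palindrome CACGTG, which contains the core, occurred in 4 of the 13 windows and in 7.26% of all promoters. Cores were counted on both strands, so each CACGTG gives 2. By this count the downstream window of HK2 and the first of LDHA held 6 each, followed by ALDOC with 5. CACGTG occurred at 2 places in each of these HK2 and LDHA windows and at 1 in ALDOC, so the order depends on this rule. The windows of the 10 genes were rich in G and C, with a median of 71.0% and a range of 36.3% to 78.3% against a median of 58.7% for all promoters, and the part of base composition in these counts was not tested. A match of letters is a description and does not show that a factor binds.

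In TPM as deposited, the 10 genes were higher in both SETD2 C libraries than in all KO and SETD2 FL libraries of the second table. Such a separation was common. Of all 15929 genes tested, 9091 were higher in both SETD2 C libraries than in both KO libraries, and 8433 than in both SETD2 FL libraries. The summed TPM of the 10 genes was 1885 and 1959 in KO, 1700 and 1866 in SETD2 FL, and 4196 and 4360 in SETD2 C. By the call rule, 7 of 10 were called higher in comparison with KO, where 3.75% of 15929 genes tested were, and 8 of 10 in comparison with SETD2 FL, where 3.36% were. At the adjusted p alone all 10 were higher in both comparisons, against 21.1% and 21.4% of all genes. HK2, ALDOC and LDHA did not reach the 2-fold rule relative to KO, and ALDOC and LDHA relative to SETD2 FL, where the log2 differences ran from 0.90 for ALDOC to 2.70 for ENO2. These counts describe genes that were selected on these libraries, and nothing is read from them. The median log2 difference of the 10 genes was 1.22 from KO and 1.27 from SETD2 FL, against 0.05 and 0.04 for all genes tested. Without scaling, the median over all genes moved to 0.18 and 0.16 and that of the 10 genes to 1.36 and 1.40. In bulk RNA, a larger share of responding cells and more RNA per cell cannot be told apart. The comparisons of SETD2 C share their libraries and are not independent.

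**Figure D1:**
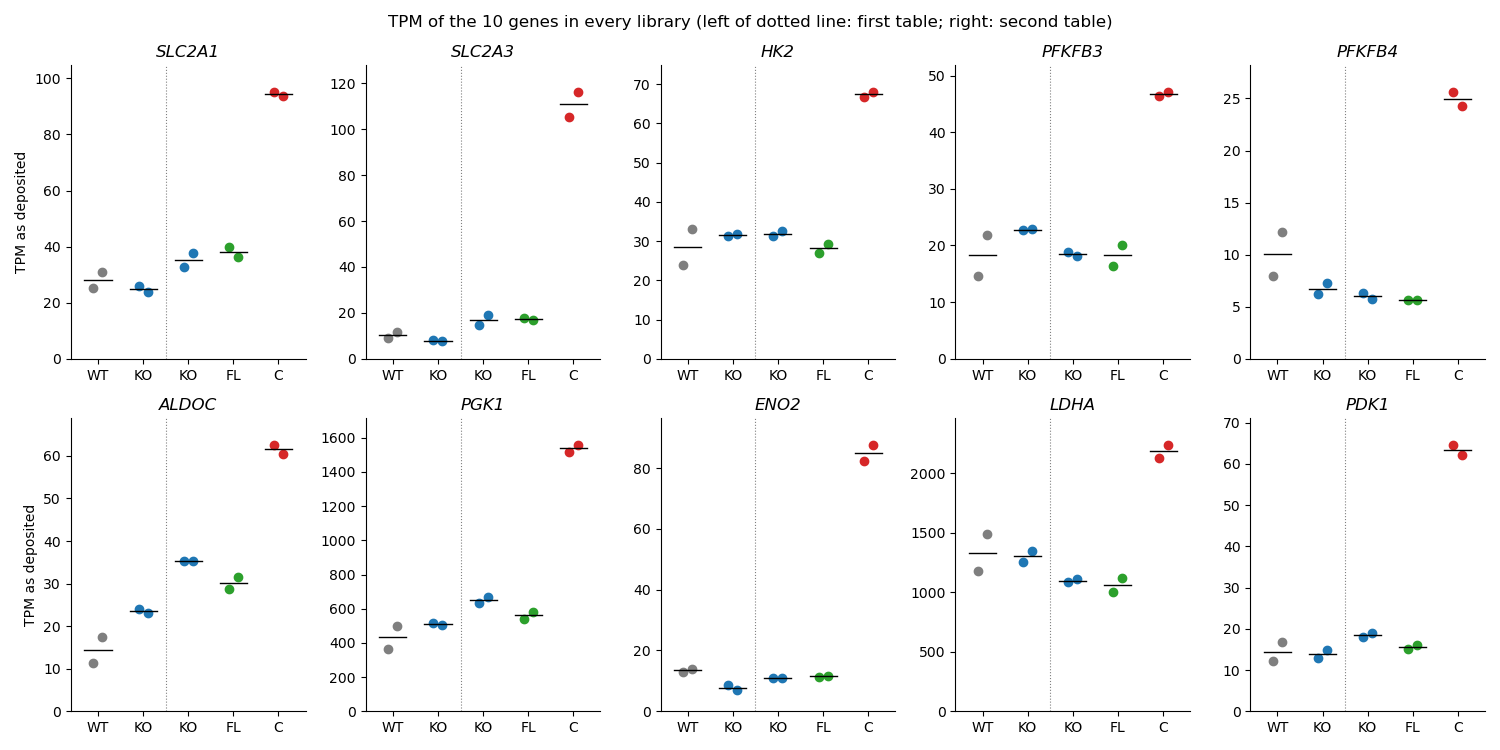
TPM as deposited, on a linear axis from 0, of each of the 10 genes in every library. Each point is a library, the short line is the mean of 2 libraries, and the dotted line parts the first table (WT, KO) from the second (KO, FL for SETD2 FL, C for SETD2 C). In every panel both SETD2 C points lie above the other 4 points of the second table, and as a fold the distance is largest for ENO2 (82.2 and 87.8 against 11.0 to 11.7).

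SLC2A1 and SLC2A3 encode the glucose transporters GLUT1 and GLUT3. SLC2A1 (ENSG00000117394, chromosome 1 from 42925353 to 42958893 of GRCh38, minus strand, 10 exons) had a TPM of 32.8 and 37.7 in KO, 39.7 and 36.2 in SETD2 FL, and 95.1 and 93.7 in SETD2 C. Its log2 difference of SETD2 C from KO was 1.27 (SE 0.09), a fold of 2.40. SLC2A3 (ENSG00000059804, chromosome 12 from 7919230 to 8019007, minus strand, 10 exons) stood at 14.7 and 19.3 in KO, 17.7 and 16.8 in SETD2 FL, and 105 and 116 in SETD2 C. KO and SETD2 FL overlapped for both transporters, and SETD2 C stood clear of them. The log2 difference of SLC2A3 from KO was 2.54 (SE 0.12), a fold of 5.80, so SLC2A3 lay below SLC2A1 in each KO and SETD2 FL library and above it in each SETD2 C library. Within the 14 genes of the SLC2A family, SLC2A3 made up 16.4% to 18.7% of the summed TPM in KO and SETD2 FL and 42.7% and 45.4% in SETD2 C, while SLC2A1 stayed at 36.5% to 38.6% in all 6 libraries. Of all 75-base windows of SLC2A3's reference transcript, 13.3% also occur in SLC2A14, so reads in these windows could be split between this pair.

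HK2 encodes hexokinase 2, which traps glucose in the cell by phosphorylation. HK2 (ENSG00000159399, chromosome 2 from 74834127 to 74893359, plus strand, 18 exons) had a TPM of 31.3 and 32.5 in KO, 27.1 and 29.3 in SETD2 FL, and 66.8 and 68.0 in SETD2 C. Both SETD2 FL libraries lay below KO, and SETD2 C lay above both groups. Its log2 difference was 0.92 (SE 0.06) from KO, under the 2-fold rule, and 1.12 (SE 0.06) from SETD2 FL, past it. The share of HK2 in the summed TPM of 5 hexokinases was 36.5% and 39.0% in KO, 35.9% and 35.0% in SETD2 FL, and 44.8% and 45.7% in SETD2 C. A processed copy, HK2P1, contains 4.49% of the 75-base windows of HK2.

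PFKFB3 and PFKFB4 encode enzymes that make and degrade fructose 2,6-bisphosphate, the main activator of phosphofructokinase 1. PFKFB3 (ENSG00000170525, chromosome 10 from 6144934 to 6254644, plus strand, 15 exons) had a TPM of 18.9 and 18.1 in KO, 16.4 and 20.1 in SETD2 FL, and 46.3 and 47.1 in SETD2 C, a log2 difference from KO of 1.17 (SE 0.08). PFKFB4 (ENSG00000114268, chromosome 3 from 48517684 to 48562015, minus strand, 14 exons) had 6.35 and 5.75 in KO, 5.64 and 5.69 in SETD2 FL, and 25.6 and 24.3 in SETD2 C, a log2 difference of 1.82 (SE 0.08). PFKFB4 thus differed more than PFKFB3 on the log2 scale, although its TPM remained the lower one in every library. The share of PFKFB4 in the summed TPM of the 4 PFKFB genes was 18.7% to 21.7% in KO and SETD2 FL and 33.5% and 31.7% in SETD2 C, and that of PFKFB3 was 63.1% to 66.1% and then 60.5% and 61.5%.

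ALDOC, PGK1 and ENO2 encode an aldolase, the phosphoglycerate kinase that makes the first ATP of the lower pathway, and the enolase isoform known from neurons. ALDOC (ENSG00000109107, chromosome 17 from 28573115 to 28576948, minus strand, 9 exons) had a TPM of 35.4 and 35.3 in KO, 28.7 and 31.4 in SETD2 FL, and 62.7 and 60.5 in SETD2 C. Its log2 difference from KO, 0.65 (SE 0.06), was the smallest of the 10, and its share among the 3 aldolases was 2.23% to 2.55% in all 6 libraries of the second table. PGK1 (ENSG00000102144, chromosome X from 77910739 to 78129295, plus strand, 11 exons), the sole expressed isoform at its step, had 635 and 668 in KO, 539 and 582 in SETD2 FL, and 1519 and 1561 in SETD2 C, a log2 difference of 1.09 (SE 0.05). ENO2 (ENSG00000111674, chromosome 12 from 6913745 to 6923698, plus strand, 12 exons) had 11.1 and 11.0 in KO, 11.4 and 11.7 in SETD2 FL, and 82.2 and 87.8 in SETD2 C. ENO2 had the largest difference of the 10, 2.74 (SE 0.06) from KO, a fold of 6.70. ENO1 nevertheless made up most of the enolase transcripts, and the share of ENO2 was 0.53% in both KO libraries, 0.61% and 0.57% in SETD2 FL, and 2.61% and 2.84% in SETD2 C.

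LDHA and PDK1 act on the fate of pyruvate: LDHA encodes the lactate dehydrogenase subunit that favours lactate, and PDK1 a kinase that inhibits pyruvate dehydrogenase. LDHA (ENSG00000134333, chromosome 11 from 18394560 to 18408425, plus strand, 8 exons) had a TPM of 1082 and 1113 in KO, 999 and 1117 in SETD2 FL, and 2129 and 2240 in SETD2 C, a log2 difference from KO of 0.84 (SE 0.06). Its share of the summed TPM of LDHA, LDHB and LDHC was 40.4% and 42.0% in KO, 40.3% and 40.6% in SETD2 FL, and 59.8% and 60.7% in SETD2 C. LDHA was below LDHB in the KO and SETD2 FL libraries and above it in SETD2 C. PDK1 (ENSG00000152256, chromosome 2 from 172555373 to 172608669, plus strand, 11 exons) had 17.9 and 18.9 in KO, 15.2 and 16.2 in SETD2 FL, and 64.7 and 62.2 in SETD2 C, a log2 difference of 1.61 (SE 0.06). PDK1 made up 29.7% to 32.7% of the summed TPM of the 4 PDK genes in KO and SETD2 FL and 57.5% and 58.0% in SETD2 C.

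**Figure D2:**
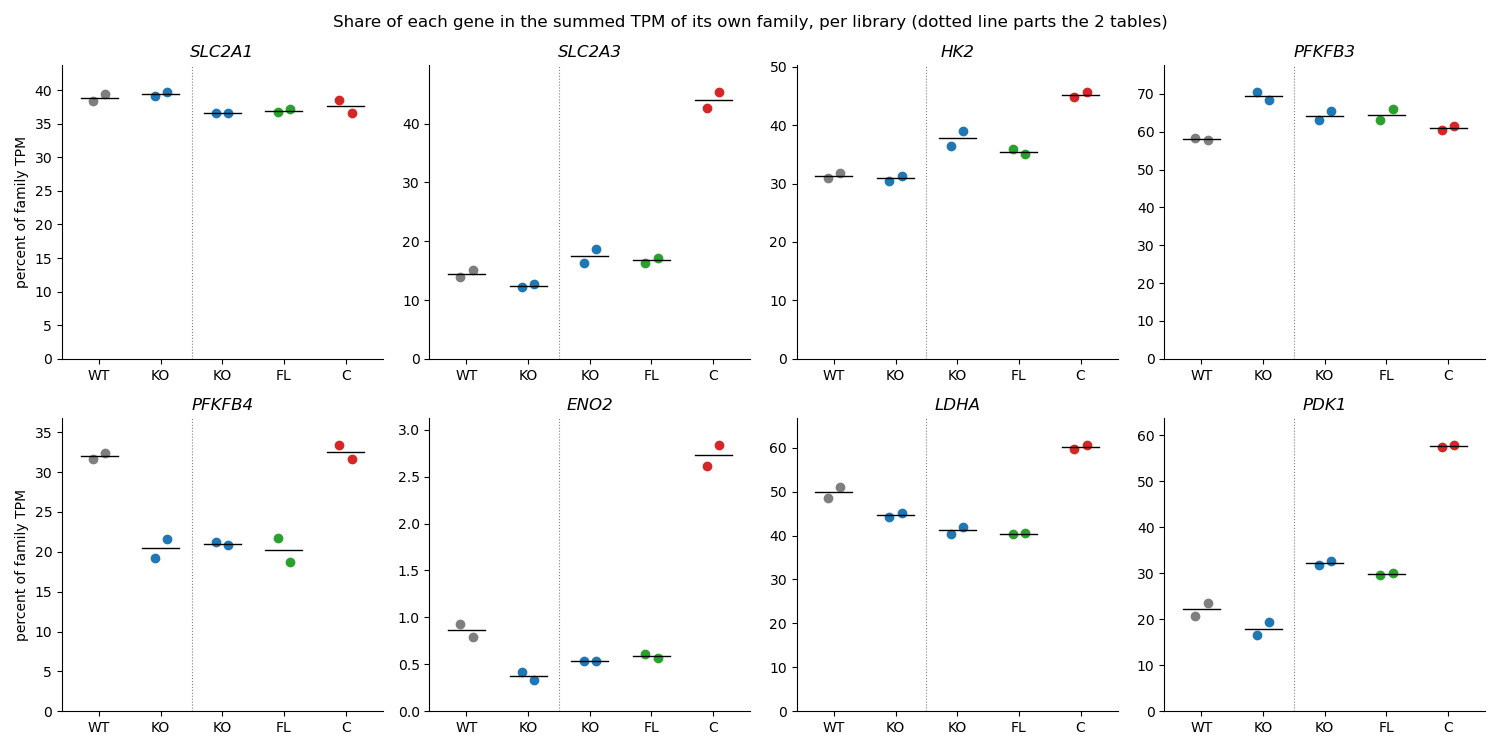
Percent of the summed TPM of its own gene family that each of 8 genes took in every library, on a linear axis from 0. Points are libraries, short lines are means of 2 libraries, and the dotted line parts the tables. SLC2A3, HK2, PFKFB4, ENO2, LDHA and PDK1 took a larger share in SETD2 C (for LDHA 59.8% and 60.7%) than in KO or SETD2 FL, while SLC2A1 stayed between 36.5% and 38.6% in the second table.

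Levels per transcript length can be compared between genes. In KO of the second table LDHA and PGK1 stood far above the rest, SLC2A1 and ALDOC overlapped near 35 with HK2 just below them, PDK1, PFKFB3 and SLC2A3 overlapped near 18, and ENO2 lay below all of the 10 but PFKFB4. With SETD2 C the order below LDHA and PGK1 was SLC2A3, SLC2A1, ENO2 and HK2, with PDK1 and ALDOC overlapping next and PFKFB3 and PFKFB4 last. The nearest profiles among genes outside the 10, by Euclidean distance of log2 values over the 6 libraries from the median profile of the 10 genes, were those of NEFL, PCDH10, RUNX1, BNIP3L and NRN1, at distances of 0.10 to 0.16. Of the 10 genes themselves, PFKFB3 lay closest to that profile (0.19) and ENO2 farthest (2.17). Among the 15929 genes tested, 9 outside the 10 lay closer to it than PFKFB3, 10759 closer than SLC2A3 and 13848 closer than ENO2. The median profile thus does not describe each of the 10.

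SETD2 FL did not separate from KO in the way SETD2 C did. Log2 differences of the 10 genes between SETD2 FL and KO ran from -0.25 for ALDOC and PDK1 to 0.09 for SLC2A1, with a median of -0.09 against 0.01 for all genes. None of the 10 was called by limma under either rule. An unadjusted p under 0.05 was seen for 4 of the 10, beside 2536 of all 15929 genes tested. In this comparison 0.0753% of genes were called higher and 0.00628% lower. Without the fold rule these shares were 0.176% and 0.0314%. These counts too are a description, from which nothing is read. PGK1, ALDOC, HK2, PDK1 and PFKFB4 lay lower in both SETD2 FL libraries than in both KO libraries, ENO2 lay slightly higher, and the others overlapped. Of all 15929 genes tested, 2902 lay lower in both SETD2 FL libraries and 4341 higher.

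Between WT and KO of the first table, the 10 genes did not share a direction. ENO2 had a TPM of 13.0 and 14.0 in WT and 8.64 and 6.85 in KO, a log2 difference of KO from WT of -0.90 (SE 0.12). PFKFB4 had 7.95 and 12.2 in WT and 6.19 and 7.25 in KO, with a log2 difference of -0.65 (SE 0.15). SLC2A3 had 9.18 and 11.8 in WT and 8.12 and 7.58 in KO, with a log2 difference of -0.51 (SE 0.09). These genes were lower in both KO libraries than in both WT libraries. ALDOC went the other way, with 11.3 and 17.6 in WT and 24.1 and 23.1 in KO, a log2 difference of 0.59 (SE 0.13). SLC2A1 had 25.4 and 30.9 in WT and 26.0 and 23.8 in KO, and its groups overlapped. For HK2 (23.8 and 33.0 in WT, 31.4 and 31.8 in KO), PGK1 (367 and 496, then 514 and 504), LDHA (1176 and 1491, then 1257 and 1345) and PDK1 (12.2 and 16.8, then 13.0 and 14.8), the first WT library was the lowest value, and groups overlapped except for PGK1. PFKFB3 had 14.7 and 21.8 in WT and 22.7 and 23.0 in KO, with both KO libraries above WT. Of all 14741 genes tested, 2150 were lower in both KO libraries than in both WT libraries, and 5400 were higher.

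By the call rule none of the 10 was called between KO and WT, where 0.339% of 14741 genes were called higher and 1.02% lower. An unadjusted p under 0.05 in limma was seen for 5 of the 10, beside 3673 of all 14741 genes. By the adjusted p alone 2 were counted lower, beside 1.32% of all genes higher and 3.17% lower. That count of 2 went to 0 without the second KO library, to 1 without the first KO or the second WT library, and to 0 without a filter on low TPM. As the genes were selected on these libraries, nothing is read from these counts. The share of PFKFB4 among the PFKFB genes was 31.6% and 32.3% in WT and 19.3% and 21.6% in KO, and that of LDHA among lactate dehydrogenases was 48.6% and 51.1% in WT and 44.3% and 45.0% in KO.

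The rest of the pathway was tested on a list of 63 other genes of glucose uptake, glycolysis and pyruvate use, of which 43 (second table) and 41 (first table) passed the filter. At the adjusted p alone, 13 of 43 were higher and 6 lower with the C-terminal segment than in KO, where 21.1% of all genes were higher and 15.1% lower. Relative to SETD2 FL, 16 were higher and 9 lower, where 21.4% and 16.8% of all genes were. The median log2 difference of the list was 0.17 from KO and 0.18 from SETD2 FL, against 0.05 and 0.04 over all genes. The split depended on scaling: without it 24 were higher and 3 lower than in KO, and 21 higher and 4 lower than in SETD2 FL. By the 2-fold rule, SLC2A14 was called higher in both comparisons and TIGAR lower than in SETD2 FL, with 0.314% and 0.421% of all genes called lower.

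Glycolytic enzymes outside the 10 genes were also higher, at smaller log2 differences. Of 23 listed enzymes, from hexokinases to pyruvate kinases, 14 were tested. Of these, 9 were higher in SETD2 C than in KO at the adjusted p alone and none lower, where 21.1% and 15.1% of all genes were. In limma, 12 of the 14 had an unadjusted p under 0.05, as did 7497 of all 15929 genes. The largest log2 difference among the 14 was 0.61, below the 0.65 of ALDOC. As the 10 genes were selected on these libraries, nothing is read from that order. Their summed TPM was 9668 and 9629 in KO, 8536 and 9469 in SETD2 FL, and 14455 and 14328 in SETD2 C. ALDOA, the main aldolase, had a TPM of 1413 and 1466 in KO and 2394 and 2396 in SETD2 C, a log2 difference of 0.59 (SE 0.06, adjusted p = 0.00046). PKM, which encodes the main pyruvate kinase, had a log2 difference of 0.53 (SE 0.05, adjusted p = 0.0004). HK1, the other abundant hexokinase, differed by 0.47 (SE 0.06, adjusted p = 0.0012), GAPDH by 0.44 (adjusted p = 0.0012), ENO1, the main enolase, by 0.41 (adjusted p = 0.0013) and PFKP, a phosphofructokinase 1 isoform, by 0.38 (adjusted p = 0.0022). The muscle enolase ENO3, PGAM1 and TPI1 were the other 3 that were higher, and TPI1 lost its call without the second KO library of the table or without the first SETD2 C library. GPI and PFKL did not pass relative to KO, at log2 differences of 0.10 and 0.18.

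Among the other transporters, SLC2A14 (chromosome 12 from 7812512 to 7891148, minus strand), the neighbour and close copy of SLC2A3, had a TPM of 0.60 and 0.73 in KO, 0.55 and 0.36 in SETD2 FL, and 4.66 and 4.93 in SETD2 C. Its log2 difference from KO was 2.07 (SE 0.17, adjusted p = 0.00018). As 14.8% of its 75-base windows occur in SLC2A3, its level is uncertain. The transporter gene SLC2A8 went down, from 13.9 and 15.9 in KO to 10.3 and 10.3 in SETD2 C (log2 difference -0.65, SE 0.11, adjusted p = 0.004). SLC2A6 was also lower (log2 difference -0.47, SE 0.14, adjusted p = 0.037) but did not pass without either SETD2 C library or without the second KO library of the table. TIGAR, which degrades fructose 2,6-bisphosphate, had a TPM of 7.70 and 5.98 in KO, 9.04 and 12.2 in SETD2 FL, and 4.08 and 5.00 in SETD2 C. Its log2 difference was -0.67 from KO (SE 0.16, adjusted p = 0.015) and -1.25 from SETD2 FL (SE 0.16, adjusted p = 0.0011), and the call against KO was lost without the first KO or the first SETD2 C library.

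**Figure D3:**
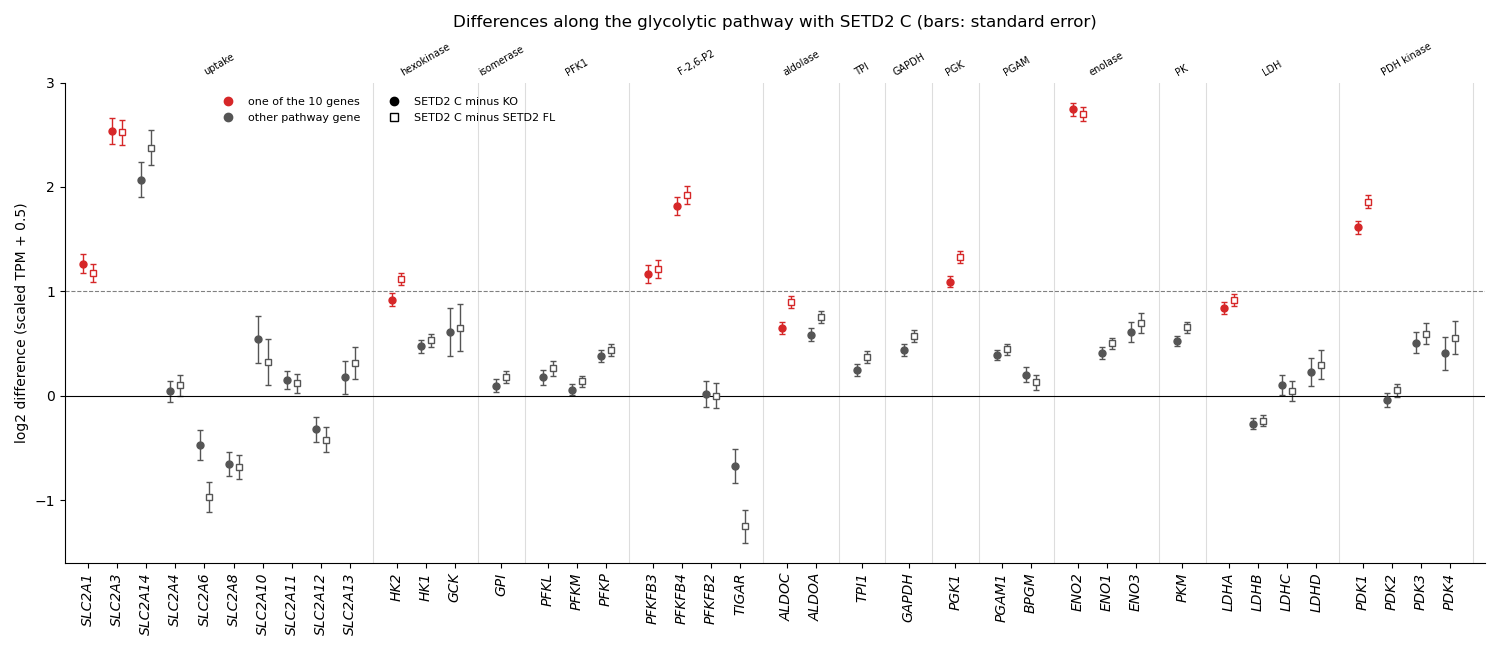
Log2 differences of SETD2 C from KO (filled circles) and from SETD2 FL (open squares) for the 10 genes (red) and tested genes of the same steps (grey), in order of the pathway from uptake to pyruvate. Bars are standard errors from limma, and the dashed line marks a log2 difference of 1. The 10 genes range from 0.65 to 2.74 relative to KO, and of the grey genes SLC2A14 alone lies above the dashed line.

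At the pyruvate step, 19 of 25 listed pyruvate and lactate genes outside the 10 were tested. At the adjusted p alone, 3 were higher in SETD2 C than in KO, 3 were lower and 13 did not pass. Of all genes, 21.1% were higher and 15.1% lower. LDHB, the lactate dehydrogenase subunit of oxidative tissues, fell by 0.27 on the log2 scale relative to KO (SE 0.05, adjusted p = 0.0069), a call lost without scaling and under quantile normalization. MPC1, a subunit of the carrier that brings pyruvate into mitochondria, fell by 0.39 (SE 0.05, adjusted p = 0.0014). DLAT, a subunit of pyruvate dehydrogenase, fell by 0.23 (SE 0.06, adjusted p = 0.016) and did not pass without the second KO or either SETD2 C library. In TPM as deposited, before scaling, DLAT fell less, from 48.3 and 50.2 in KO to 46.3 and 46.9 in SETD2 C. PDK3 was higher by 0.51 (SE 0.10, adjusted p = 0.0067), as was PDP1, a phosphatase that activates pyruvate dehydrogenase, by 0.45 (SE 0.08, adjusted p = 0.005). PDK2, the main PDK isoform in KO, differed by -0.04 (SE 0.06, adjusted p = 0.66). DLD, shared by several dehydrogenase complexes, was higher by 0.17 (SE 0.06, adjusted p = 0.047), and did not pass when any one of the KO or SETD2 C libraries was left out.

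The TCA cycle and the pentose phosphate pathway held more genes that were lower than higher. Of 16 TCA cycle genes, 8 were lower in SETD2 C than in KO at the adjusted p alone and none higher. Of all genes, 15.1% were lower and 21.1% higher. An unadjusted p under 0.05 in limma was seen for 10 of the 16, beside 7497 of all 15929 genes. The 8 went to 5 without the second KO library and to 4 without the second SETD2 C library. The median log2 difference was -0.20. Among them were CS, which encodes citrate synthase, at -0.43 (SE 0.06, adjusted p = 0.0017), and MDH2, a malate dehydrogenase, at -0.42 (SE 0.06, adjusted p = 0.0021). Without scaling, 4 were lower and 2 higher, as were 1115 and 5507 of all 15929 genes. Of 6 pentose phosphate genes, 4 were lower than in KO, among them the transketolase gene TKT (-0.74, SE 0.06, adjusted p = 0.00014) and the transaldolase gene TALDO1 (-0.40, SE 0.07, adjusted p = 0.0044). Without scaling 4 were lower and 1 higher. Relative to SETD2 FL, 6 TCA cycle genes were lower and 1, SUCLA2, was higher, a call lost without the first SETD2 C library. In that comparison 5 pentose phosphate genes were lower, which went to 3 without either SETD2 FL library and to 3 lower and 1 higher without scaling.

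**Figure D4:**
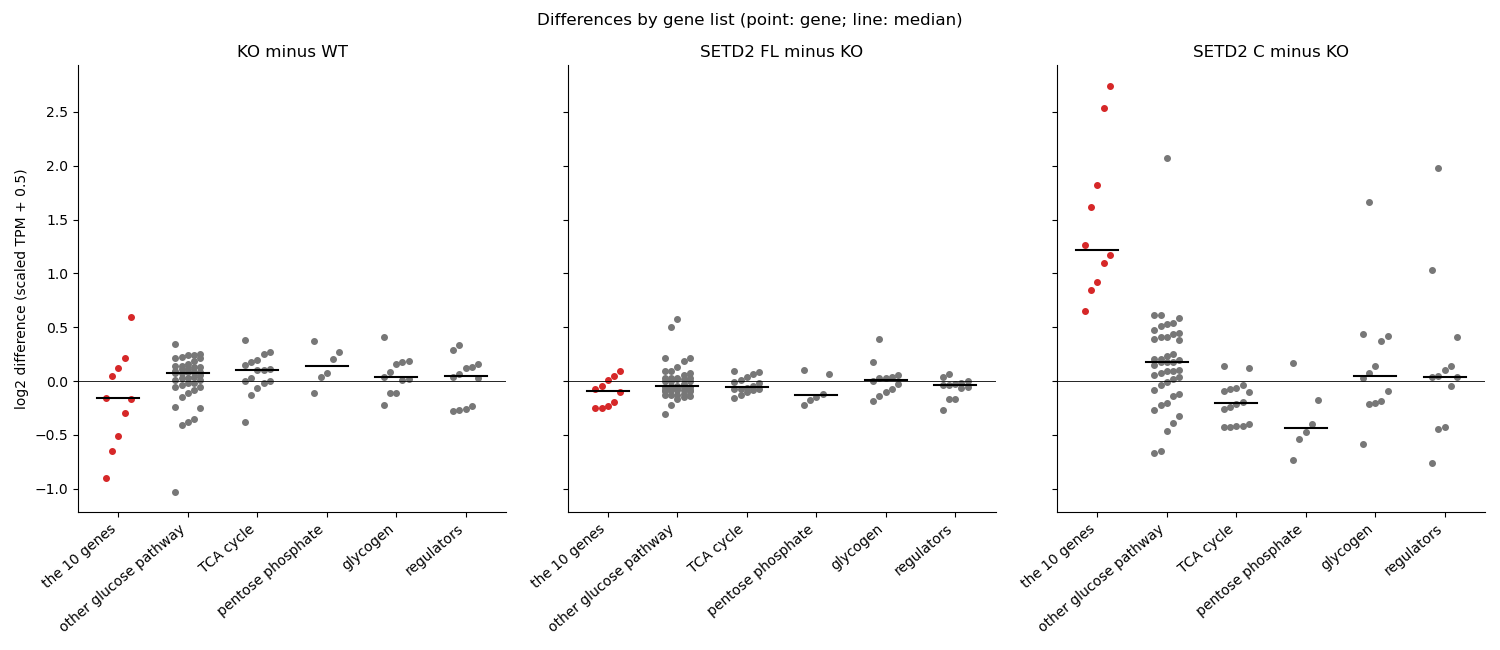
Log2 differences by gene list in KO minus WT, SETD2 FL minus KO and SETD2 C minus KO. Each point is a gene that passed the filter, and the line is the median of its list. In SETD2 C minus KO the 10 genes (red) have a median of 1.22, other glucose pathway genes 0.17, TCA cycle genes -0.20 and pentose phosphate genes -0.44, while the medians in the other comparisons lie between -0.16 and 0.14.

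In SETD2 FL against KO, none of the 43 other glucose pathway genes passed in limma at the adjusted p alone. An unadjusted p under 0.05 was seen for 7 of the 43, beside 2536 of all 15929 genes. Between KO and WT, 1 of 41 passed, SLC2A10, a transporter of the same family, with a TPM of 1.57 and 2.06 in WT and 0.79 and 0.61 in KO. Its log2 difference was -1.03 (SE 0.16, adjusted p = 0.025), and the call was lost when either KO library or the first WT library was left out.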

How the data were processed

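RNA-seq of 10 libraries was analysed, and the ChIP-seq samples were not analysed here. The authors aligned paired reads to hg38 with STAR 2.6.1c and deposited TPM per gene, estimated with RSEM 1.3.0 in 2 tables made separately, so comparisons stay within a table. Of 58884 listed genes, 58472 had their identifier in GENCODE 44 (GRCh38), 18 were matched by symbol and 394 were left unmatched.

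Libraries were scaled by the median ratio to their geometric mean, over protein-coding genes and lncRNAs whose TPM was 1 or more throughout the table. Genes of these types were kept where 2 or more libraries reached a TPM of 0.5, and limma 3.58.1 (R 4.3.3) was run on log2 of the scaled TPM plus 0.5 (eBayes with trend, Benjamini-Hochberg over all genes tested), with all libraries of a table in one fit. The procedure was tested on simulated data. The 10 genes and all gene lists were chosen with earlier results of these data known. Named were the 10 genes, SETD2, expressed paralogs, called genes of the lists and the 5 nearest profiles. PGLS was not analysed here, and some genes of the lists are not reported here by name. Families were set by hand, with ENO1, ENO2 and ENO3 for enolase and LDHA, LDHB and LDHC for lactate dehydrogenase. Alternatives were other pseudocounts, filters and scalings, eBayes without trend, fits of fewer groups, a replicate block in the first table, each library left out in turn and, added after seeing the data, all gene types.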

Additional observations from a re-analysis of the deposited data

How the results depend on the processing

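All 10 genes were higher with SETD2 C than with KO or SETD2 FL in each of 14 alternatives per comparison, and the median difference from KO ranged from 1.18 to 1.36. Between 7 and 8 were called relative to KO and between 8 and 10 relative to SETD2 FL. Of the other glucose pathway genes at the adjusted p alone, no scaling moved the higher ones from 13 to 24 and the lower ones from 6 to 3 relative to KO, and the lower ones from 9 to 4 relative to SETD2 FL. Over all genes, no scaling moved the higher ones from 3357 to 5507 and the lower ones from 2404 to 1115 relative to KO. Rescaling without mitochondrially encoded genes and SETD2 gave 19 higher and 4 lower pathway genes relative to KO, beside 4579 and 1472 of all genes. With 1 library left out, 3 to 5 were lower than in KO and 5 to 7 lower than in SETD2 FL.

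In KO against WT at the adjusted p alone, the count of the 10 genes that were lower moved from 2 to 1 with all gene types, without trend, without scaling and with rescaling, to 0 without a filter and to 3 under the filter of TPM 1 throughout. It ranged from 0 to 2 with 1 library left out, and by the 2-fold rule from 0 to 1. The count of higher ones moved from 0 to 1 without scaling and under the filter of TPM 1 throughout, and ranged from 0 to 1 with 1 library left out. Of the other pathway genes, the higher ones moved from 0 to 1 without scaling and ranged from 0 to 1 with 1 library left out. The lower ones moved from 1 to 0 without a filter and under the filter of TPM 1 throughout, and ranged from 0 to 3 with 1 library left out. Over all genes tested, the lower ones moved from 467 of 14741 to 66 of 23677 without a filter. Under the filter of TPM 1 throughout they were 447 of 12628. Without scaling, the lower ones over all genes moved to 359 and the higher ones from 194 to 410. Apart from scaling and fewer libraries, the cause was not tested. A lone remaining library was assumed to vary like the other groups.

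The replicate numbers 1 and 2 are shared by WT and KO, with a correlation of deviations between same-numbered libraries of 0.147, and 2 pairs do not show that the numbers pair the samples. With the replicate block, 3 of the 10 genes were lower and 1 higher, and 2 other pathway genes were lower and 1 higher. Over all 14741 genes tested, the block moved the lower ones from 467 to 825 and the higher ones from 194 to 439. No paired analysis was possible in the second table because its groups share fewer than 2 numbers. TPM holds no depth, so counting error is unknown, and 2 libraries per group limit what small differences can be called.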

Other observations

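Genes next to the glycolytic route, from lists of glycogen metabolism, gluconeogenesis and regulators of glucose genes, held a few large differences in SETD2 C. GBE1, the glycogen branching enzyme, had a TPM of 9.72 and 10.3 in KO, 10.0 and 11.2 in SETD2 FL, and 34.0 and 38.7 in SETD2 C, a log2 difference from KO of 1.66 (SE 0.09, adjusted p = 2e-05, limma). It was the sole one of 12 tested glycogen genes past the 2-fold rule, where 3.75% of all genes were called higher. At the adjusted p alone, where 21.1% of all genes were higher and 15.1% lower, UGP2 and PPP1R3B were also higher than in KO. GYG1 was among 3 that were lower. Leaving out any one KO or SETD2 C library left 2 higher, without PPP1R3B, and 1 lower. PCK1, the cytosolic enzyme that commits carbon to gluconeogenesis, was higher by 1.46 (SE 0.19, adjusted p = 0.0012) from a TPM of 0.62 and 0.38 in KO to 2.69 and 2.20, while its mitochondrial counterpart PCK2 was lower by a log2 difference of -0.85 (SE 0.07, adjusted p = 0.00025).

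TXNIP, an arrestin that lowers glucose uptake, had a TPM of 22.8 and 24.9 in KO, 21.2 and 21.9 in SETD2 FL, and 96.6 and 116 in SETD2 C (log2 difference from KO 1.98, SE 0.09, adjusted p = 1.1e-05 from limma). Its relative ARRDC4 was higher by 1.03 (SE 0.08, adjusted p = 0.00021). MYC fell from 290 and 292 in KO to 196 and 186 in SETD2 C (log2 difference -0.76, SE 0.06, adjusted p = 0.0002). The transcripts of the HIF subunits, named here after their values were seen, did not pass the test, with log2 differences from KO of 0.10 (SE 0.07, adjusted p = 0.31) for HIF1A, 0.04 (SE 0.10, adjusted p = 0.77) for EPAS1 and 0.14 (SE 0.07, adjusted p = 0.16) for ARNT. MLX and ESRRA were lower, at -0.43 (adjusted p = 0.0031) and -0.44 (adjusted p = 0.0016). Of the 12 regulators, 2 were higher than in KO and 3 lower at the adjusted p alone. Of all genes, 21.1% were higher and 15.1% lower. In SETD2 FL against KO, none of the 12 regulators passed in limma. An unadjusted p under 0.05 was seen for 2 of the 12, beside 2536 of all 15929 genes.

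Of 9 HEK293T markers, NES, NEFM, NEFL and KRT8 were higher by the 2-fold rule relative to KO, as were 3.75% of all genes. KRT8 had a log2 difference of 1.61 (SE 0.06, adjusted p = 4.9e-06 from limma). NEFL was also the gene whose profile lay nearest to the median of the 10.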
